A study of Rattus norvegicus with 8 samples.

Results

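The genes described here are the long intergenic noncoding RNAs (lincRNAs) that were read at a measurable level in the rat Achilles tendon. A gene was included when the deposited Ensembl annotation gave it the biotype lincRNA or lncRNA and when its raw count averaged at least 50 reads over the 8 rats. By this rule 42 genes were kept out of 3090 lincRNA genes, in a table of 32883 genes. The table held 0 genes of biotype lncRNA. Of the 3090 lincRNA genes, 1138 had at least 1 read in the 8 rats and 1952 had none. The members were thus selected on their raw counts, averaged over both groups, so the levels below are descriptions without a test. The choice also touches the comparison of the groups, since a gene could reach the minimum through 1 group: 35 members averaged at least 50 reads in each group, 7 did so in NC only, and 0 at 12 h p.r. only.

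LincRNAs are transcribed from DNA between protein-coding genes, and many are capped, spliced and polyadenylated like mRNA without carrying a long open reading frame. Some stay in the nucleus and act on chromatin, splicing or nuclear bodies, others reach the cytoplasm, and some are mainly host transcripts from whose introns small RNAs are cut. They are commonly less abundant and more restricted to single tissues than mRNAs. Only polyadenylated RNA was captured for these libraries.

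RNA was taken from the right Achilles tendon of male Sprague-Dawley rats, 4 of which were made to run uphill on a treadmill for 1 h and were killed 12 h later (12 h p.r.), while the other 4 rested in their cages as naïve controls (NC) and were killed at the same time. Airflow and a mild electric stimulus prompted the running, so the 12 h p.r. group also carries this handling. There was 1 stranded library for each rat and no genetic change in either group. In the text, the 4 values of a group stand in the order of the replicate numbers, which carry no ranking. CPM express a count per 1e6 reads of the library after TMM scaling and compare 1 gene between rats, whereas FPKM are also divided by gene length and compare different genes.

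The libraries held 7350509 to 10648648 counted reads at 12 h p.r. and 8385779 to 12951397 in NC. All 8 tenocyte markers were read in the rats, with a mean log2 level of 8.62 to 9.86 at 12 h p.r. and 8.88 to 9.53 in NC on the log2(CPM + 0.5) scale. Other tissue was also present. The mean log2 level of 9 skeletal muscle genes, mostly of fast fibers, ran from 6.96 to 11.86 at 12 h p.r. and from 6.12 to 9.98 in NC, and that of 8 cartilage and bone genes ran from 1.15 to 4.83 and from 2.00 to 5.69. In bulk tissue, fewer cells of a type and less RNA per cell cannot be told apart.

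Most members have no descriptive name. Of the 42 genes, 34 carry the name of a sequenced clone (30 begin with AABR and 4 with AC), 6 carry a LOC number and 2 carry another symbol, *Tug1* and *Rfwd3*. A list of 61 symbols of well-known noncoding RNA genes, which included *Malat1*, *Neat1*, *Meg3*, *H19* and *Xist*, found 2 of its symbols in the table, and *Tug1* was the member among them. The record named *Rfwd3* (ENSRNOG00000051461) has the biotype lincRNA and bears the symbol of a coding gene, a ubiquitin ligase of the DNA damage response, so its reads are given here for the record and not for the ligase. No other record of the table bears this symbol, and whether these reads come from the coding gene was not tested. Nothing can be said from these counts about the well-known noncoding RNAs that have no row under their symbol.

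A comparison with RefSeq by identifier or symbol matched 3 of the 42 members, *Tug1*, LOC102549726 and LOC100909912, and a promoter window was at hand for *Tug1* and LOC102549726. Each window holds 300 bases, 250 before the RefSeq start and 50 from it onward, 5′ to 3′ on the strand of the gene in the build GRCr8. They are shown because these are the members with a sequence, and because they differ in base composition. The window of *Tug1* is at chr14:82750485-82750784 (minus strand), and that of LOC102549726 is at chr20:3880958-3881257 (plus strand). The capitals mark the letters TATAAA.
Tug1: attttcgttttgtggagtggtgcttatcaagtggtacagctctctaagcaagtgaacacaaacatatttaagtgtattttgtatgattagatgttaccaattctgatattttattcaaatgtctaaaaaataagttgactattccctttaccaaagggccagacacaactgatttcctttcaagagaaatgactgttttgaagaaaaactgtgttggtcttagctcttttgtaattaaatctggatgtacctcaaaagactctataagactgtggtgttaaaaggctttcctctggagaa
LOC102549726: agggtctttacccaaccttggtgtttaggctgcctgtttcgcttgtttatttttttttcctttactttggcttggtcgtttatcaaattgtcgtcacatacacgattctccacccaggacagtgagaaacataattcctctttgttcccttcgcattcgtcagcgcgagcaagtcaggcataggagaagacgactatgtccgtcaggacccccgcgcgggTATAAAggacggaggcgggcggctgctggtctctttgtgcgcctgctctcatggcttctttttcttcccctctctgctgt

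The window of *Tug1* had a GC content of 34% with 1 CG pair, and the window of LOC102549726 had 50.3% with 17 CG pairs. Over the 33469 promoter windows of the same length, the median GC content was 51.7% and the median number of CG pairs was 7. In LOC102549726 the letters TATAAA began 30 bases before the start. They occur on either strand in 14.2% of all windows and were not found in the window of *Tug1*. The letters CCAAT, which 37.5% of the windows hold on either strand, were found for *Tug1* and not for LOC102549726. CACGTG (6.42% of the windows, the E-box bound by the clock factors) and TGACGTCA (1.83%, the cyclic AMP response element) were in neither of the windows on either strand. A match of letters is a description of the sequence and says nothing about binding in these tendons.

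The 42 lincRNAs together took a small part of each library, and in 3 rats most of that part was 1 gene. Their share of all counted reads was 0.0901%, 0.108%, 0.0659% and 0.222% at 12 h p.r. and 0.0829%, 0.264%, 0.0754% and 0.194% in NC. AC134224.3 (ENSRNOG00000062158) alone took 66.6% of these reads in 12 h p.r. replicate 4, 63.5% in NC replicate 2 and 53.3% in NC replicate 4, and between 8.31% and 14.1% in the other 5 rats. Without AC134224.3, the share of the other members lay between 0.0593% and 0.0942% at 12 h p.r. and between 0.0692% and 0.0964% in NC, and the groups overlapped.

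**Figure D1:**
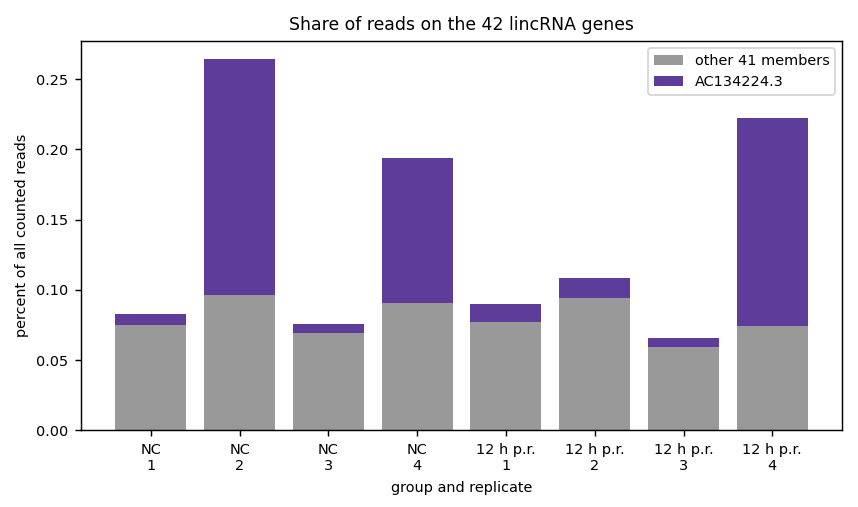
Share of all counted reads (percent) on the 42 lincRNA genes in each of the 8 rats, with AC134224.3 in purple and the other 41 genes in gray. The gray parts lie between 0.0593% and 0.0964%, and the 3 tall bars (NC replicates 2 and 4, 12 h p.r. replicate 4) are tall through AC134224.3.

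By length-corrected level, the members spread widely. The mean FPKM over the 8 rats ran from 0.947 for AABR07033564.1 to 832 for AC134224.3, with a median of 6.21, compared with a median of 12.0 for the 10923 protein-coding genes that pass the same minimum count. At or above an FPKM of 10 were 15 members, and 18 lay below 5. The annotated length of the members had a median of 2161.5 bases, with 447 to 5614 bases as the extremes, against 2470 bases for those coding genes.

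The 3 highest members carry the name of the same clone, with a mean FPKM of 832 for AC134224.3, 78.3 for AC134224.1 and 61.2 for AC134224.2. Next came AABR07072236.1 with a mean FPKM of 44.2, AABR07065531.5 with 38.4, AABR07001389.1 with 37.4 and AABR07002969.1 with 33.8. AABR07019209.1 followed with 26.0, LOC108349594 with 16.8 and AABR07025387.1 with 14.1. The neighbors from AABR07072236.1 to AABR07002969.1 in this order differ by less than their range over the rats, since AABR07065531.5 alone ran from 26.4 to 72.1 FPKM.

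At the lower edge, the minimum of 50 reads left AABR07030366.1 (mean count 51.6), AABR07033564.1 (54) and AABR07044366.1 (55.1) just inside. Just outside were AABR07041096.1 (49.4), AABR07049695.3 (48.6) and AC108574.1 (48.6). The steps between these genes are smaller than the spread of any of them over the rats, for example 29 to 101 reads for AABR07033564.1 and 25 to 81 reads for AABR07041096.1.

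**Figure D2:**
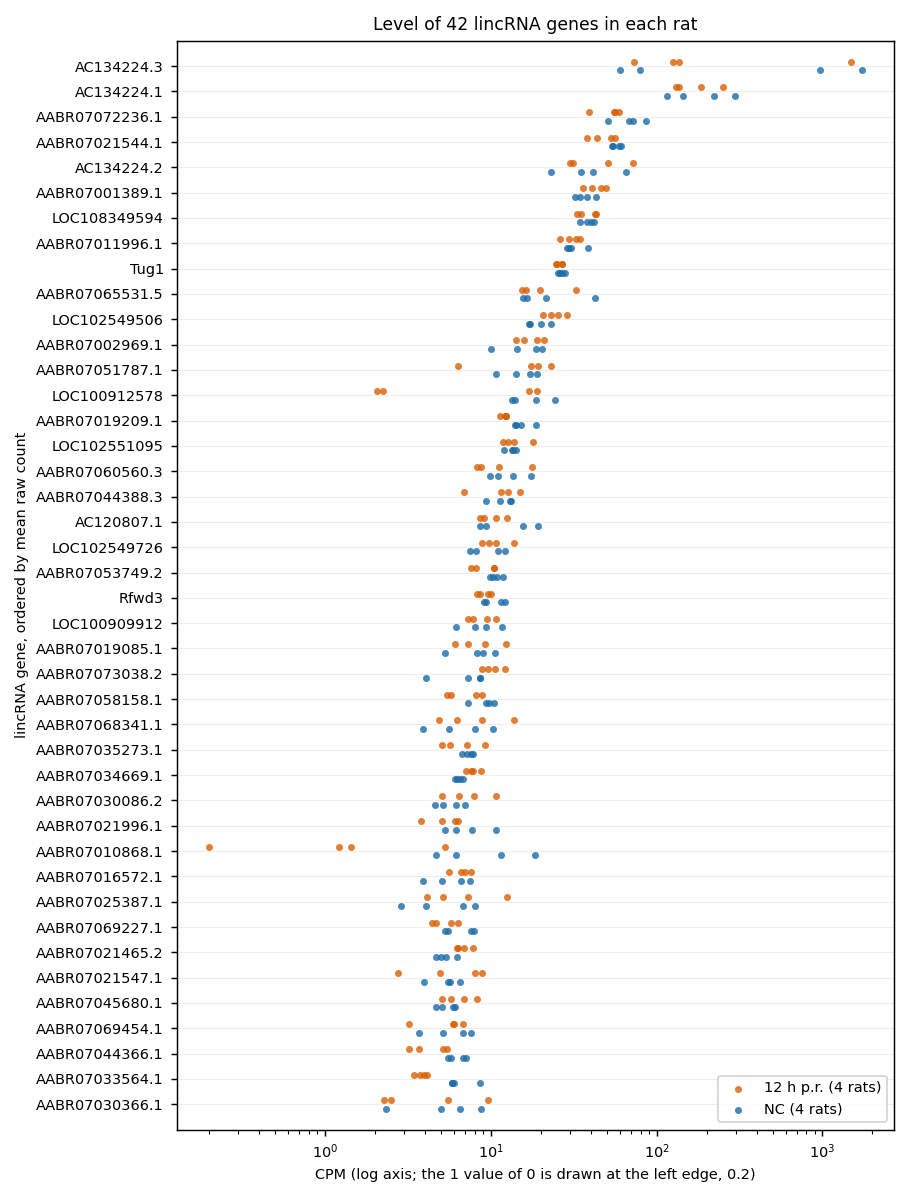
CPM on a log axis of the 42 lincRNA genes in each rat, in order of mean raw count, with 12 h p.r. rats in orange and NC rats in blue. AC134224.3 ranges from 60.3 to 1725 CPM, LOC100912578 and AABR07010868.1 also spread widely, and *Tug1* keeps within 24.9 to 28.04 CPM.

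How much a member varied from rat to rat differed greatly among the 42. The SD of log2(CPM + 0.5) within the groups had a median of 0.30 over the members and ran from 0.06 to 2.21, next to a median of 0.23 for all genes tested and 0.20 for protein-coding genes with at least 50 reads. The members also had fewer reads, with a median of 99.6 against 212 for all genes tested and 303 for those coding genes. The part of counting error in these SDs was not tested. For 19 members the highest rat stayed under 2 times the lowest. In 5 members the highest rat reached at least 4 times the lowest, and in 3 of these at least 8 times, counting AABR07010868.1, which had no read in 1 rat. The extremes were not spread evenly over the rats: 12 h p.r. replicate 2 was the highest rat for 13 members and NC replicate 2 for 9, while 12 h p.r. replicate 3 was the lowest for 13 members and NC replicate 3 for 9. The last 2 rats were also those with the highest level of skeletal muscle genes, 11.86 and 9.98. The rats most often highest, replicate 2 of each group, had the fewest counted reads of their groups, 7350509 and 8385779. Over the 8 rats no member had an adjusted permutation p under 0.05 against the skeletal muscle list. With 8 rats and adjustment over 378 relations, this cannot decide whether muscle goes with the low values. In the edgeR fit 0 members were called with the level of that list as a covariate and 0 without it. That fit concerns the group difference and says nothing about these extremes, whose cause was not tested.

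*Tug1* (ENSRNOG00000051135), a conserved RNA found in most tissues, was the steadiest member. Its CPM was 26.9, 26.7, 24.9 and 25.1 at 12 h p.r. and 25.4, 26.2, 26.8 and 28.04 in NC. The groups overlapped and the highest rat was 1.13 times the lowest. The log2 fold change was −0.04 with an SE of 0.08 (edgeR quasi-likelihood test, unadjusted p = 0.635, adjusted p = 0.905). In FPKM, *Tug1* averaged 5.10 over the rats and stood at place 23 of the 42.

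AC134224.3 varied more than any other member, with a within-group SD of 2.21 on the log2 scale. Its CPM was 125, 137, 73.4 and 1479 at 12 h p.r. and 79.3, 1725, 60.3 and 966 in NC. In each group some rats were about as low as in the other and at least 1 was far above them, so the groups overlapped. The log2 fold change was −0.64 with an SE of 1.24 (edgeR, unadjusted p = 0.617). Single rats set this value. It was 0.30 without NC replicate 2, and −2.66 without 12 h p.r. replicate 4 (unadjusted p = 0.0493).

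The other genes of the same clone varied far less than AC134224.3. The CPM of AC134224.1 (ENSRNOG00000062127) was 185, 251, 131 and 136 at 12 h p.r. and 145, 295, 115 and 221 in NC, and that of AC134224.2 (ENSRNOG00000062155) was 51.0, 72.5, 31.2 and 30.0 and then 34.9, 64.9, 23.0 and 41.5. The 4 controls had the same order in all 3 genes, with NC replicate 2 highest and NC replicate 3 lowest, and so did 12 h p.r. replicates 1 to 3, whereas 12 h p.r. replicate 4 was the highest runner for AC134224.3 and among the lower runners for the other genes. In both the groups overlapped. AC134224.1 stood to AC134224.2 in a CPM ratio of 3.47 to 5.34 in the 8 rats, whereas AC134224.3 stood to AC134224.1 in a ratio of 0.525 to 0.673 in 5 rats and of 10.9, 5.84 and 4.36 in 12 h p.r. replicate 4, NC replicate 2 and NC replicate 4. The log2 fold changes were −0.14 (SE 0.32) and 0.17 (SE 0.36). Reads that match more than 1 place may be shared among genes of 1 clone, and how such reads were counted is not given in the sources used here.

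LOC100912578 (ENSRNOG00000059883) was split among the runners. Its CPM was 2.07, 2.24, 18.9 and 16.9 at 12 h p.r. and 18.6, 13.5, 24.2 and 14.0 in NC, from 16, 17, 159 and 180 and from 232, 110, 321 and 165 reads. In 2 of the 4 runners it was far below the other 6 rats, and the other 2 runners lay inside the control range. Its log2 fold change was −0.80 with an SE of 0.65 (edgeR, unadjusted p = 0.249).

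The remaining wide members showed no such split. AABR07025387.1 had a CPM of 4.14, 12.5, 5.12 and 7.32 at 12 h p.r. and of 8.02, 6.75, 2.87 and 4.08 in NC, with a log2 fold change of 0.43 (SE 0.42). AABR07030366.1 had 9.58, 2.50, 2.26 and 5.54 at 12 h p.r. and 6.49, 8.71, 2.34 and 5.01 in NC, with −0.17 (SE 0.52). In both, low and high rats occurred in each group. AABR07065531.5, of the highest 5 members by FPKM, had 32.6, 16.3, 15.5 and 19.9 CPM at 12 h p.r. and 21.5, 42.2, 16.5 and 15.6 CPM in NC, so that 12 h p.r. replicate 1 and NC replicate 2 stood above the others. These were also the rats with the most reads on genes of biotype rRNA, 422 and 222 of every 1e6 counted reads against 44.0 to 140 in the other 6, and the part of this in the level of AABR07065531.5 was not tested.

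**Figure D3:**
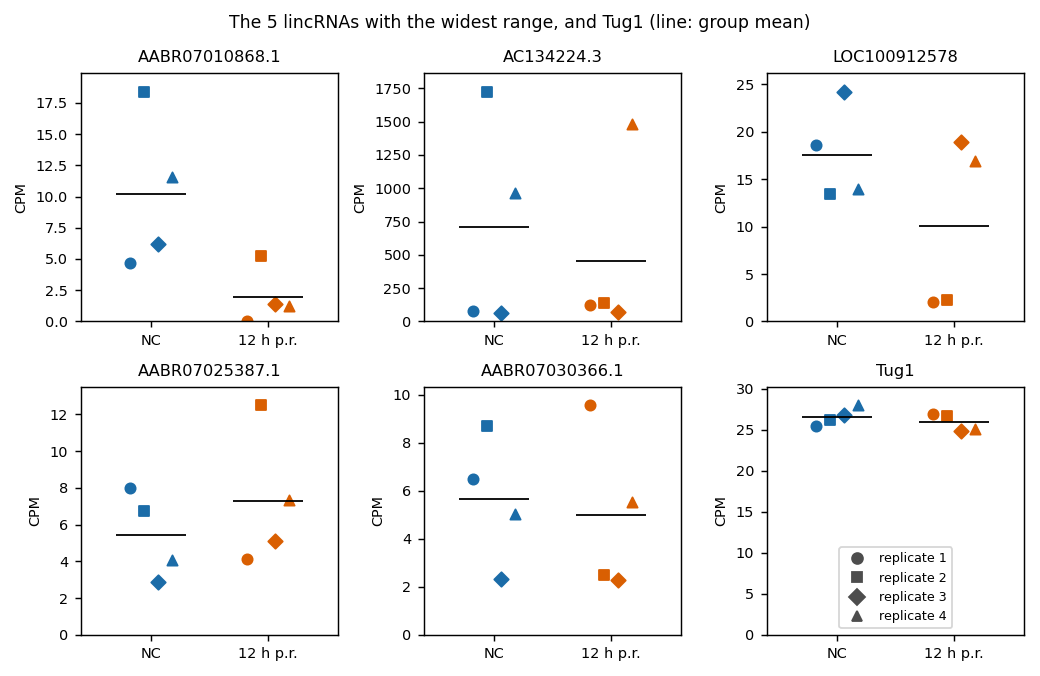
CPM in each rat of the 5 lincRNAs with the widest range and of *Tug1*, with NC in blue, 12 h p.r. in orange, a shape for each replicate number and a line at the group mean. LOC100912578 is near 2 CPM in 12 h p.r. replicates 1 and 2 and at least 13.5 CPM in the other 6 rats, and each axis begins at 0.

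The question of the design was which genes differed 12 h after the run. None of the 42 lincRNAs passed an adjusted p of 0.05 in the edgeR quasi-likelihood test (0 of 42, lowest adjusted p = 0.402), where 0.00718% of all 13937 genes tested passed, which is 1 gene. DESeq2 called 0 members as well, against 0.694% of the 13825 genes to which it gave an adjusted p. Without adjustment, 6 of the 42 had a p under 0.05 (14.3%), 1 higher and 5 lower at 12 h p.r. Of the 5 lower members, 3 (AABR07033564.1, AABR07010868.1 and AABR07044366.1) are among the 7 that reach the minimum of 50 reads in NC only, where the libraries were mostly deeper. Members kept in that way could only be lower at 12 h p.r. in reads, so the count of lower members is a description and no evidence about lincRNAs. Among all genes tested this share was 9.51%, with 5.44% higher and 4.08% lower. The median log2 fold change of the members was −0.05, with 18 above 0 and 24 below, and the median of all genes was 0.02. The 96 tested lincRNA genes with fewer reads gave 0 calls and 9 genes with an unadjusted p under 0.05 (9.38%), and their median was also −0.05. In the same rats 9.86% of the protein-coding genes with at least 50 reads had an unadjusted p under 0.05.

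Read by the rats themselves, 6 members had groups that did not overlap, 3 higher and 3 lower at 12 h p.r., beside 6.06% of all genes tested (3.52% higher and 2.55% lower). With 4 rats against 4, the exact permutation test over the 70 splits gives each of them 0.0286, the smallest p it can give. That p follows from the lack of overlap by which the 6 were picked, and it adds nothing to it. Of the 3 lower members, AABR07033564.1 and AABR07044366.1 reached the minimum count through NC only, which favors lower values at 12 h p.r. The 10 members with the smallest unadjusted p are given singly, and all had an adjusted p of at least 0.402.

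AABR07033564.1 (ENSRNOG00000059467) had the smallest p of the 42. Its CPM was 3.75, 3.95, 3.45 and 4.13 at 12 h p.r. and 5.85, 6.01, 5.82 and 8.58 in NC. All runners were below all controls, and NC replicate 4 stood above the other controls. The means were 3.82 ± 0.291 and 6.56 ± 1.35 (SD, n = 4 each), and the log2 fold change was −0.78 with an SE of 0.19 (edgeR, unadjusted p = 0.00289, adjusted p = 0.402). Between 29 and 44 reads at 12 h p.r. and between 49 and 101 reads in NC lie behind these values. AABR07033564.1 reached the minimum count through NC only, a choice that favors a lower value at 12 h p.r. At 5459 bases it is among the longest members, and it had the lowest mean FPKM.

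AABR07019209.1 (ENSRNOG00000062248) was also lower in all runners. Its CPM was 12.3, 12.4, 11.3 and 12.1 at 12 h p.r. and 18.6, 15.2, 13.9 and 14.3 in NC. The runners lay close together and NC replicate 1 was the highest rat. This gave a log2 fold change of −0.37 with an SE of 0.13 (edgeR, unadjusted p = 0.0176, adjusted p = 0.447). Without NC replicate 1 it was −0.26, with an unadjusted p of 0.0515.

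AABR07044366.1 (ENSRNOG00000052122) completes the lower members without overlap. Its CPM was 5.18, 3.69, 3.21 and 5.44 at 12 h p.r. and 7.05, 5.76, 5.51 and 6.80 in NC. The highest runner, at 5.44 CPM, came close to the lowest control, at 5.51 CPM, so the gap is narrow. On the log2 scale the fold change was −0.52 with an SE of 0.22 (edgeR, unadjusted p = 0.0411, adjusted p = 0.506). AABR07044366.1 reached the minimum count through NC only, a choice that favors a lower value at 12 h p.r.

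Among the members with overlap, AABR07072236.1 (ENSRNOG00000062181) had 59.1, 54.9, 38.9 and 56.0 CPM at 12 h p.r. and 68.2, 86.1, 51.0 and 72.2 CPM in NC. Replicate 3 was the lowest rat of each group, and NC replicate 3 lay within the range of the runners. Its log2 fold change was −0.41 with an SE of 0.18 (edgeR, unadjusted p = 0.0482, adjusted p = 0.522). AABR07021544.1 (ENSRNOG00000049537) had 38.0, 56.1, 43.6 and 52.8 CPM at 12 h p.r. and 54.3, 61.2, 59.4 and 53.5 CPM in NC, with a log2 fold change of −0.26 (SE 0.13, unadjusted p = 0.0706). Here only 12 h p.r. replicate 2 reached into the control range.

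On the higher side, LOC102549506 (ENSRNOG00000053948), at 5614 bases the longest member, had 20.7, 28.7, 23.1 and 25.5 CPM at 12 h p.r. and 17.1, 19.99, 17.1 and 23.2 CPM in NC. The controls overlapped the runners through NC replicate 4. The log2 fold change was 0.34 with an SE of 0.14 (edgeR, unadjusted p = 0.0411, adjusted p = 0.506), and the unadjusted p was 0.12 without 12 h p.r. replicate 2.

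The 3 higher members without overlap all missed an unadjusted p of 0.05. AABR07073038.2 (ENSRNOG00000059100) had 8.80, 10.5, 12.1 and 9.67 CPM at 12 h p.r. and 8.58, 7.24, 8.61 and 4.08 CPM in NC, with a log2 fold change of 0.53 (SE 0.24, unadjusted p = 0.0564). AABR07021465.2 (ENSRNOG00000058710) had 6.86, 7.77, 6.31 and 6.29 CPM at 12 h p.r. and 6.25, 5.40, 4.98 and 4.67 CPM in NC, with 0.35 (SE 0.17, unadjusted p = 0.0642). In each of these the lowest runner lay just above the highest control. AABR07034669.1 (ENSRNOG00000056559) had 7.12, 7.77, 8.69 and 7.60 CPM at 12 h p.r. and 6.81, 6.50, 6.12 and 6.29 CPM in NC, with 0.28 (SE 0.14, unadjusted p = 0.0776). Its within-group SD of 0.09 on the log2 scale was among the smallest of the members.

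**Figure D4:**
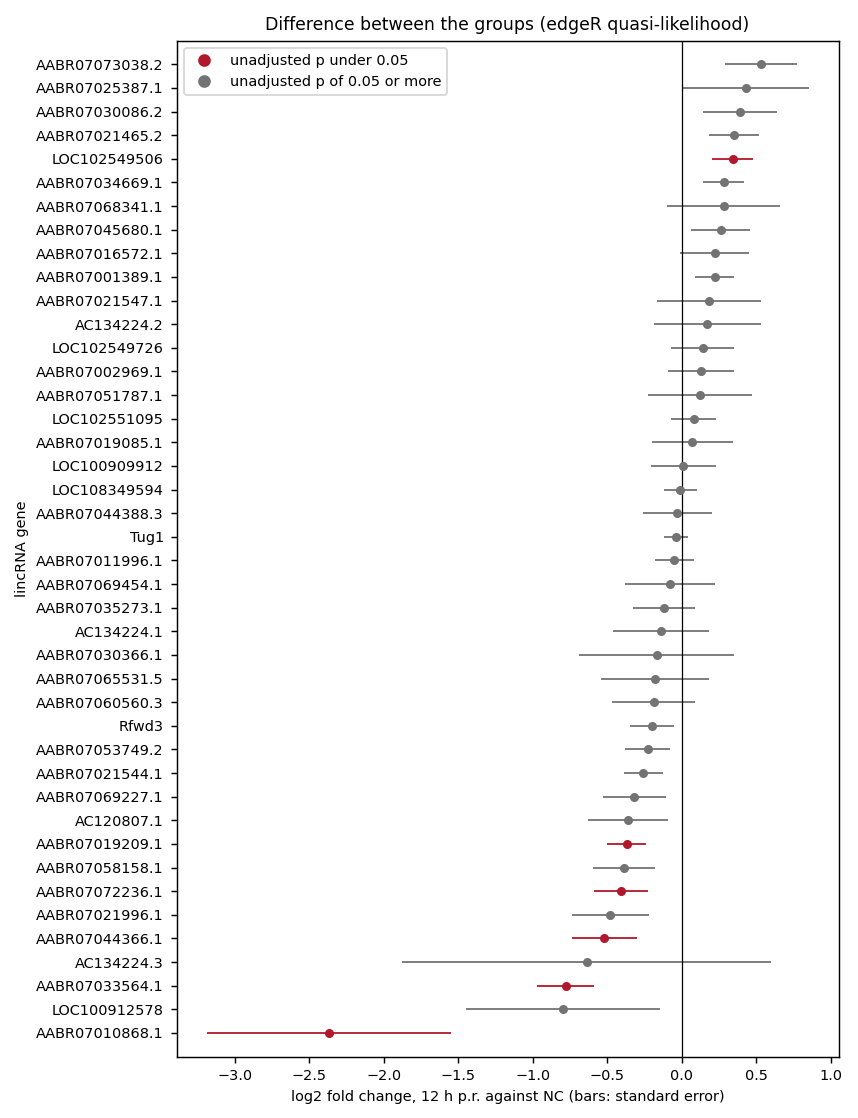
Log2 fold change of the 42 lincRNA genes, 12 h p.r. against NC, with bars for the standard error (edgeR quasi-likelihood test), and in red the 6 genes with an unadjusted p under 0.05. The values lie between −2.37 and 0.53, with 18 above and 24 below 0, and no gene passed an adjusted p of 0.05.

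The 21 members not named by level, by p, by range or as a known noncoding RNA showed small differences. Their log2 fold changes lay between −0.48 and 0.39, with 10 above and 11 below 0. Their groups overlapped in 21 of 21, and the lowest unadjusted p among them was 0.0961. The within-group SD of log2(CPM + 0.5) in these genes ran from 0.17 to 0.62, and their highest rat was 1.46 to 3.68 times the lowest. For the record named *Rfwd3*, the CPM was 9.58, 8.30, 8.57 and 9.95 at 12 h p.r. and 9.30, 11.5, 9.06 and 12.2 in NC, with a log2 fold change of −0.20 (SE 0.15, unadjusted p = 0.206).

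AABR07010868.1 (ENSRNOG00000052016), a gene of 497 bases, had the largest log2 fold change of the members. Its CPM was 0, 5.27, 1.43 and 1.22 at 12 h p.r. and 4.65, 18.4, 6.19 and 11.6 in NC, from 0, 40, 12 and 13 and from 58, 150, 82 and 136 reads. No read in 12 h p.r. replicate 1 allows up to 0.388 CPM there, taking 3 counts as the limit and counting error alone. The groups overlapped, since 12 h p.r. replicate 2 was above NC replicate 1. The log2 fold change was −2.37 with an SE of 0.82 (edgeR, unadjusted p = 0.0175, adjusted p = 0.446), and it was −1.93 (unadjusted p = 0.0544) without NC replicate 2. AABR07010868.1 reached the minimum count through NC only, with a mean of 16.25 reads in the runners and 106.5 in NC. That choice favors a lower value at 12 h p.r., and both fits share it.

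The level of AABR07010868.1 moved from rat to rat together with muscle genes, several of them of slow fibers. Over log2(CPM + 0.5) in the 8 rats, the protein-coding genes most like it among 13323 were *Myl2*, the regulatory myosin light chain of slow and cardiac muscle (Pearson r = 0.985), *Ankrd2*, a muscle ankyrin repeat protein (0.976), *Sln*, the calcium pump inhibitor sarcolipin (0.975), *Myoz2*, a protein of the Z-disc (0.970), *Myh3*, the embryonic myosin heavy chain (0.967), and *Tnnc1*, the troponin C of slow muscle (0.963). Next came *Zfp276* (0.961), *Atp1b1* (0.960), *Myl3* (0.960) and *Fhl1* (0.958), so the closest genes were not all genes of slow muscle. These r values are the highest of many and describe 8 libraries, without a test. *Myl2* itself had 0, 13.0, 1.19 and 1.31 CPM at 12 h p.r. and 7.46, 35.2, 16.6 and 30.3 CPM in NC.

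A list of 7 slow muscle genes (*Myh7*, *Myl2*, *Myl3*, *Tnni1*, *Tnnc1*, *Tnnt1* and *Atp2a2*) was then written, after these values had been seen, so it is a description. Its mean log2 level was 1.43, 7.57, 4.67 and 5.22 at 12 h p.r. and 6.87, 8.38, 7.41 and 8.12 in NC. The order of the rats was nearly that of AABR07010868.1, with r = 0.97 and rho = 0.95 over the 8 rats, and r was 0.97 again without the 2 rats farthest from the median of the list. Of the 7 genes, 0 were called, and *Myl2* and *Atp2a2* were lower with an unadjusted p under 0.05. Because the list holds genes picked for their likeness to AABR07010868.1, a fit with it as a covariate would test nothing about that gene. The level of the mostly fast skeletal muscle list had r = −0.06 and rho = 0.00 with AABR07010868.1. These counts cannot tell RNA of AABR07010868.1 made in muscle fibers within the sample from RNA made in tendon cells of the same rats.

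The genes most like AABR07021544.1 were *Myl3*, a myosin light chain of slow muscle (r = 0.944), and the clock repressor *Nr1d2* (r = 0.942). With the slow muscle list AABR07021544.1 had r = 0.93 and rho = 0.83, and r was 0.60 without the rats farthest from the median of the list. Its log2 fold change was −0.26 in the main fit and −0.00 (SE 0.12) with that list as a covariate. The list holds *Myl3*, so these values are a description, and their cause was not tested.

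**Figure D5:**
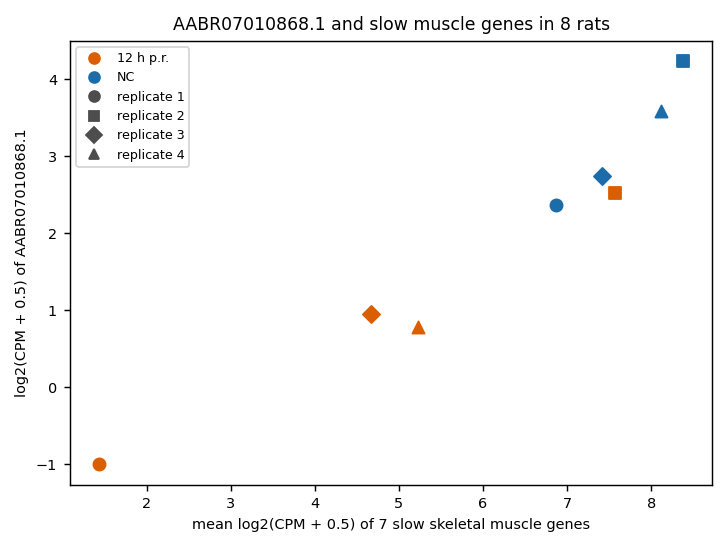
Level of AABR07010868.1, log2(CPM + 0.5), against the mean log2(CPM + 0.5) of 7 slow skeletal muscle genes in each of the 8 rats, with 12 h p.r. in orange, NC in blue and a shape for each replicate number. The slow muscle level runs from 1.43 in 12 h p.r. replicate 1, where the lincRNA had no read, to 8.38 in NC replicate 2, where it was highest (r = 0.97, description of 8 libraries).

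For the other lincRNAs with the smallest p, the 2 closest coding genes over the 8 rats were read in the same way. AABR07033564.1 went with *Ywhah*, a 14-3-3 protein (r = 0.975), and with the RNA methyltransferase *Trdmt1* (0.973), and AABR07019209.1 went with *Ppil4*, a prolyl isomerase (0.993), and *Cd302*, a C-type lectin receptor (0.978). LOC102549506 was closest to *Adipor1*, an adiponectin receptor (0.936), and *Cntn2* (0.908), and AABR07044366.1 to *Plekhf1* (0.965) and the nuclear pore protein *Ndc1* (0.964). AABR07072236.1 was closest to *Orc2*, of the origin recognition complex (0.970), and the inflammatory caspase *Casp4* (0.967). On the higher side, AABR07073038.2 was closest to *Tmub1* (0.966) and *Morn1* (0.954), AABR07021465.2 to *Lysmd1* (0.961) and *Lmf1*, a lipase maturation factor (0.950), and AABR07034669.1 to *Lsm10*, of the U7 snRNP (0.970), and the kinesin light chain *Klc1* (0.955). All are Pearson values over 8 rats that share library and depth, each picked as the highest of 13323, and they are given without a test.

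The levels of 9 lists of cell type markers were set against all 42 members, which gave 378 relations over the 8 rats. None had an adjusted permutation p under 0.05, by Pearson or by Spearman, over the 40320 pairings. Every one of these relations also holds the difference between the groups, if any.

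Where RefSeq placed a member, its neighbors were read in the same rats. LOC102549726 (ENSRNOG00000054031) is a gene on chromosome 20 that holds the small nucleolar RNA genes *Snord48* and *Snord52* within its span in RefSeq. Whether they lie in its introns and on its strand, as in the host transcripts described above, was not checked. Its own CPM was 10.7, 13.7, 8.81 and 9.76 at 12 h p.r. and 11.1, 7.48, 8.08 and 12.2 in NC. The groups overlapped, with the highest rat among the runners and the lowest among the controls, and the log2 fold change was 0.14 (SE 0.21, unadjusted p = 0.505). The neighbor *Hspa1b*, an inducible heat shock protein, had 3.24, 3.03, 2.50 and 4.79 CPM at 12 h p.r. and 4.73, 10.4, 4.98 and 7.99 CPM in NC, with a log2 fold change of −1.03 (SE 0.32, edgeR unadjusted p = 0.0101, adjusted p = 0.433). Its groups overlapped only through 12 h p.r. replicate 4 and NC replicate 1, and whether it differed from LOC102549726 in its change was not tested. *Neu1*, the lysosomal sialidase, had −0.16 (SE 0.15).

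Next to *Tug1*, *Morc2*, a chromatin-compacting ATPase, had a log2 fold change of 0.09 (SE 0.10) and *Osbp2*, an oxysterol-binding protein, 0.15 (SE 0.22). LOC100909912 (ENSRNOG00000057352) had 7.25, 7.77, 9.52 and 10.8 CPM at 12 h p.r. and 11.6, 9.32, 6.19 and 7.99 CPM in NC, with a log2 fold change of 0.01 (SE 0.22). Its neighbors *Ncoa3*, a nuclear receptor coactivator, and *Sulf2*, a heparan sulfate sulfatase, had 0.08 (SE 0.16) and −0.11 (SE 0.14). None of these members or neighbors passed an adjusted p of 0.05. For the members that RefSeq did not match, neighbors were not analysed here.

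Among 5 lists read, a list of imprinted coding genes stood beside those of the protein machinery that binds, splices and degrades such RNAs. Of 12 paraspeckle proteins, which assemble on long noncoding RNA in the nucleus, 0 were called, the RNA-binding proteins *Dazap1* (log2 fold change 0.32, SE 0.11, unadjusted p = 0.0161) and *Rbm14* (−0.40, SE 0.12, unadjusted p = 0.00809) had an unadjusted p under 0.05 in opposite directions, and the median was −0.14. Of 13 nuclear speckle splicing factors tested, 0 were called and *Clk4*, a kinase of SR proteins, was lower without adjustment (−0.32, SE 0.13, unadjusted p = 0.0295), with a list median of −0.19. Of 14 genes of the nuclear RNA exosome, 0 were called and the core subunit *Exosc4* was higher without adjustment (0.30, SE 0.10, unadjusted p = 0.0114), with a median of −0.10. None of 14 nonsense-mediated decay factors (median −0.02) and none of 7 imprinted coding genes tested (median 0.02) had an unadjusted p under 0.05. All genes tested had a median of 0.02.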

How the data were processed

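Poly(A) RNA of 8 tendons was sequenced as stranded libraries, 1 for each rat. The authors aligned the reads to Rnor_6.0 with HISAT2 2.1.0 and used featureCounts 1.6.3 per Ensembl gene, and the deposited counts are whole reads without normalization. Whether the counting used the strand, and how reads matching several genes were treated, is not given in the sources used here, so reads of overlapping or antisense genes may not be told apart. The deposited FPKM were checked to equal the count over the gene length and over 1 scaling factor a rat, and the gene lengths given here were recovered from them as whole numbers for 21046 of 21046 genes (tolerance 0.01). The authors' comparison table, made with DESeq2 1.30.1, holds log2 fold changes and p-values and was not used.

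From the counts, genes were kept by filterByExpr and 12 h p.r. was set against NC in the quasi-likelihood test of edgeR 4.0.16 with TMM factors, with Benjamini-Hochberg adjustment over 13937 genes, all 42 members included. CPM refer to the TMM-scaled library. Exact permutation tests used log2(CPM + 0.5) and are 2-sided. Those of the groups cannot go below 0.0286, whereas those of the marker relations run over 40320 pairings and can go lower. DESeq2 1.42.0 and limma 3.58.1 (log2(FPKM + 1) and log2(FPKM + 0.1)), other filters and scalings, marker covariates, a replicate block and the omission of each rat were tried as alternatives. R 4.3.3 and Python 3.11.15 were used, and the test was tried on simulated counts. The edgeR, DESeq2 and limma p-values set the group difference against the spread between single rats, which was estimated with information shared across genes.

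The members, the marker lists and the alternatives were chosen with earlier results of these data known. Named are the 10 members highest in FPKM, the 10 with the smallest unadjusted p, the 5 with the widest range over the rats, those bearing one of 61 known symbols, and the 3 on each side of the minimum. Members described for a RefSeq match or a conflicting symbol, AABR07065531.5 beside the rRNA reads, and the slow muscle genes stand outside this rule or were chosen after their values were seen. RefSeq names, neighbors and promoters are of the build GRCr8. The neighbor of a member could be taken for the matched members alone.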

Additional observations from a re-analysis of the deposited data

Results flagged for a closer look

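In NC replicate 4, AABR07033564.1 stood above the other controls, at 3.18 on the log2(CPM + 0.5) scale against 2.70 in the nearest of them (8.58 and 6.01 CPM), a gap that takes 0.917 of the range of the group. The groups of 21 members were checked in this way, 42 groups in all, of which chance would mark about 2.1, and this was the only one marked. Without NC replicate 4 the log2 fold change of AABR07033564.1 was −0.62. The gene's unadjusted p stayed under 0.05 in 8 of 8 edgeR fits across all genes that left out 1 rat, between 0.00429 and 0.00933. AABR07033564.1 reached the minimum count through NC only, with a mean of 33 reads in the runners and 75 in NC. That choice favors a lower value in the runners, and these fits share it, so they cannot remove it. The cause of the high control was not tested.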

How the results depend on the processing

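No lincRNA was called under any alternative run (0 to 0 when 1 rat was left out). Of all genes, 0 or 1 were called in the edgeR and limma fits and 96 with DESeq2. The counts with an unadjusted p under 0.05 rest on few rats: the total of 6 ran from 3 (without NC replicate 2) to 7 (without NC replicate 3), the 1 higher gene from 0 to 2 and the 5 lower genes from 2 to 6. The count over all genes moved as well, from 1326 of 13937 in the main fit. It was lowest without NC replicate 4 (879 of 14007) and highest without 12 h p.r. replicate 3 (1580 of 14236). Without NC replicate 2 it was 1272 of 14196, and without NC replicate 3 it was 1305 of 14020. The shifts among the members are thus not particular to lincRNAs. The median of −0.05 ran from −0.10 to 0.01. Higher genes numbered 2 with limma on log2(FPKM + 1), limma on log2(FPKM + 0.1), the skeletal muscle covariate and the slow muscle covariate, and 0 with the cartilage and bone covariate or without replicate 3 of both groups. Lower genes numbered 3 with the cartilage and bone covariate (3 in all) and 2 with the slow muscle covariate, which gave a median of 0.11. Of all 13937 genes, 1314 had an unadjusted p under 0.05 with the cartilage and bone covariate. The number was 1469 with the skeletal muscle covariate and 808 with the slow muscle covariate. With limma it was 1430 (FPKM + 1) and 1437 (FPKM + 0.1) of 17691, and without replicate 3 of both groups it was 1507 of 13950. With a minimum mean of 20 counts (87 genes) there were 3 higher and 8 lower, 11 in all, and with 100 counts (21 genes) 2 lower and 3 in all. With CPM in place of FPKM, 7 of the 10 highest members were shared. AC134224.3 changed sign with the slow muscle covariate (1.43) and without NC replicate 2 (0.30, range from −2.66), and AABR07030366.1 without 12 h p.r. replicate 2 (0.04), 12 h p.r. replicate 3 (0.07) or NC replicate 2 (0.11, range from −0.69). The causes were not tested. The slow muscle covariate and the omission of both replicates 3 were chosen after seeing the data. That covariate holds close correlates of AABR07010868.1 and the closest correlate of AABR07021544.1, so a loss under it supports nothing.

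Nothing in the labels pairs the rats by replicate number, and the values do not settle whether such pairs exist. Deviations of same-numbered rats correlated at 0.075, −0.202, 0.129 and 0.090, and 1 of 4 runners was closest to its own number. Among the members, however, the highest rat was most often replicate 2 and the lowest most often replicate 3, in runners and controls alike. With a replicate block, 0 members were called, and 2 were higher and 5 lower without adjustment. Over all 13937 genes, 974 had an unadjusted p under 0.05 with the block and 1326 without it. The block changed the SE of AC134224.3 from 1.24 to 0.77 and that of *Tug1* from 0.08 to 0.11. With 4 rats a group and a median of 99.6 reads a member, small differences in the shallow members cannot be seen.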
